A study of Mus musculus with 10 samples.

Results

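The genes described here are 30 markers of the cells that line the brain's fluid spaces, 20 of the choroid plexus (Ttr to Slc13a4 in the plots) and 10 of the ependyma (Foxj1 to Ak7). They were taken by gene symbol from a deposited table of 21956 genes, and 30 of 30 were found. All 30 had enough counts to enter the test across genes, which covered 14396 genes. The table comes from bulk RNA sequencing of the hippocampus of 10 mice, all of the genotype labelled hMapt and all 6 months of age. In 5 of them AAV-circTau6 had been injected. The design text gives 80 days after that injection and no separate interval for the controls. Here circTau6 is a circular RNA of the tau gene, and AAV is a viral vector for gene delivery. The other 5 are labelled control; the RNA protocol calls them control-injected and does not name the agent. The serotype, promoter and injection site of the vector and the make-up of the hMapt allele were not given in the sources used here. The comparison asks which transcripts differ after circTau6 delivery.

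The choroid plexus is a folded sheet of epithelium around blood vessels that hangs in the ventricles and secretes cerebrospinal fluid. Its cells move ions and water from blood to fluid, and they release carrier proteins, of which transthyretin is the best known. Ependymal cells line the ventricle walls and beat motile cilia, whose genes are switched on by Foxj1 together with factors of the RFX family. In the mouse both tissues lie against the hippocampus, along the lateral ventricle.

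Total counts were 14762952 to 17647138 per library, so that 3 counts equal 0.170 to 0.204 CPM (a gene's count scaled to the library's size). Markers of hippocampal neurons had mean levels of 6.39 to 6.64 log2 CPM in the 10 libraries, and 11 of 11 passed the filter. In circTau6 replicate 3, deviations of genes from their mean correlated with transcript GC content at 0.265 across 14371 genes, against -0.0724 to -0.00984 in the others. Control replicate 2 and circTau6 replicate 5 stood apart from all others in the genes described here. Results that rest on them are therefore given without them as well, or for each library by itself. Mapt, the mouse tau gene, had 387 to 530 counts, and its log2 fold change was -0.11 ± 0.07 (SE; edgeR adjusted p 0.981). This row does not separate mouse from human tau and does not measure circTau6.

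Because these genes varied together between libraries, their promoters were read for short motifs of factors known in these cells. RefSeq windows, from 250 bases before to 50 bases after a gene's start in GRCm38.p6, were held for 23 members, 15 of the choroid plexus and 8 of the ependyma. The RFX half-site GTTGCC, searched on both strands, was in a window of 4 of 8 ependymal members (Dynlrb2, Ccdc153, Tekt1 and Tekt4). It was in a window of 4 of 15 choroid plexus members (Steap1, Aqp1, Otx2 and Kcne2). Of all 32851 windows 12.5% hold it, and of the 27025 genes with a window 14.1% do. In a second list of motile cilium genes it was in a window of 21 of 37 genes, and in a second choroid plexus list of 4 of 23. The OTX motif TAATCC was in 7.06% of all windows and in those of 8.14% of genes, in those of 1 of 15 choroid plexus members (Otx2 itself) and of 0 of 8 ependymal members. The forkhead motif TGTTTAC was in 3.65% of all windows, in those of 4.05% of genes, and among the members in those of Prlr and Ak7. A match describes the letters and does not show that a factor binds there.

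The stretches that hold the half-site are printed for 3 ependymal and 2 choroid plexus members, 5′ to 3′ on the strand of the gene and without annotated exons. Capitals mark GTTGCC or its reverse complement GGCAAC.
Dynlrb2, chr8:116504815-116504973, plus strand: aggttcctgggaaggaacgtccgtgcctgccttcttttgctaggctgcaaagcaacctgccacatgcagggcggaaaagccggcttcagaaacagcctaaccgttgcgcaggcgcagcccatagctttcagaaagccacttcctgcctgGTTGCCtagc
Ccdc153, chr9:44240477-44240675, plus strand: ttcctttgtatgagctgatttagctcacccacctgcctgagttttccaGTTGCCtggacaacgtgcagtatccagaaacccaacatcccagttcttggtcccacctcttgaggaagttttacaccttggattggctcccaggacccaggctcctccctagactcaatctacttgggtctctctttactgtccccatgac
Tekt1, chr11:72361883-72362082, minus strand: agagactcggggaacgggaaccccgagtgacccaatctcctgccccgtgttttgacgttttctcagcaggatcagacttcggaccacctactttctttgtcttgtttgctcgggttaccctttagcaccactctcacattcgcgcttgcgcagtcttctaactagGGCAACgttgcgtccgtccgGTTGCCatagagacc
Aqp1, chr6:55336099-55336298, plus strand: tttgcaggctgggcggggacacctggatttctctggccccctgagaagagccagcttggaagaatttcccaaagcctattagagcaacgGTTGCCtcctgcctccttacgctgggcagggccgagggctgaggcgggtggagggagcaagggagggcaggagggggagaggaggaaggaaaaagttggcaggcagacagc
Kcne2, chr16:92292189-92292388, plus strand: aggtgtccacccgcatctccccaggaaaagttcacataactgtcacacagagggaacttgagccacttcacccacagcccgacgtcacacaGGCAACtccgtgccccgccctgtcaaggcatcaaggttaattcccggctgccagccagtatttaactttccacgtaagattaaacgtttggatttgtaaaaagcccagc

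Dynlrb2, Ccdc153 and Tekt1, whose stretches carry the motif, had between 21.7% and 76.3% of the median level of the other libraries of the group in control replicate 2 and circTau6 replicate 5, which were poor in choroid plexus transcripts. Aqp1 and Kcne2, which carry it too, had 1.62% to 3.19%. Of the other carriers, Tekt4 had 14.8% and 37.2%, Otx2 4.78% and 10.5%, and Steap1, from 1 and 2 counts, 0.800% and 1.69%. Members with the motif thus included genes with much and with little left in these libraries. These shares follow the difference between the ependymal and choroid plexus lists, and any part of the motif in them was not tested.

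The members spanned a wide range of levels. In TPM, a unit that allows for transcript length as well as library total, Ttr averaged 5420 (SD 3148, n = 5) among controls and 5934 (SD 4149, n = 5) after circTau6. Enpp2, which encodes autotaxin, the enzyme that makes lysophosphatidic acid, followed with 1582 (SD 871, n = 5) and 1624 (SD 1062, n = 5). In the 8 libraries other than those named above, the other members had median levels from 129 TPM (Cab39l) down to 1.46 TPM (Tekt4). The ependymal member with the highest median TPM in those 8 libraries was Cfap126 at 17.1. Only Trpv4, Steap1 and Wfdc2 of the choroid plexus members lay below it.

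**Figure D1:**
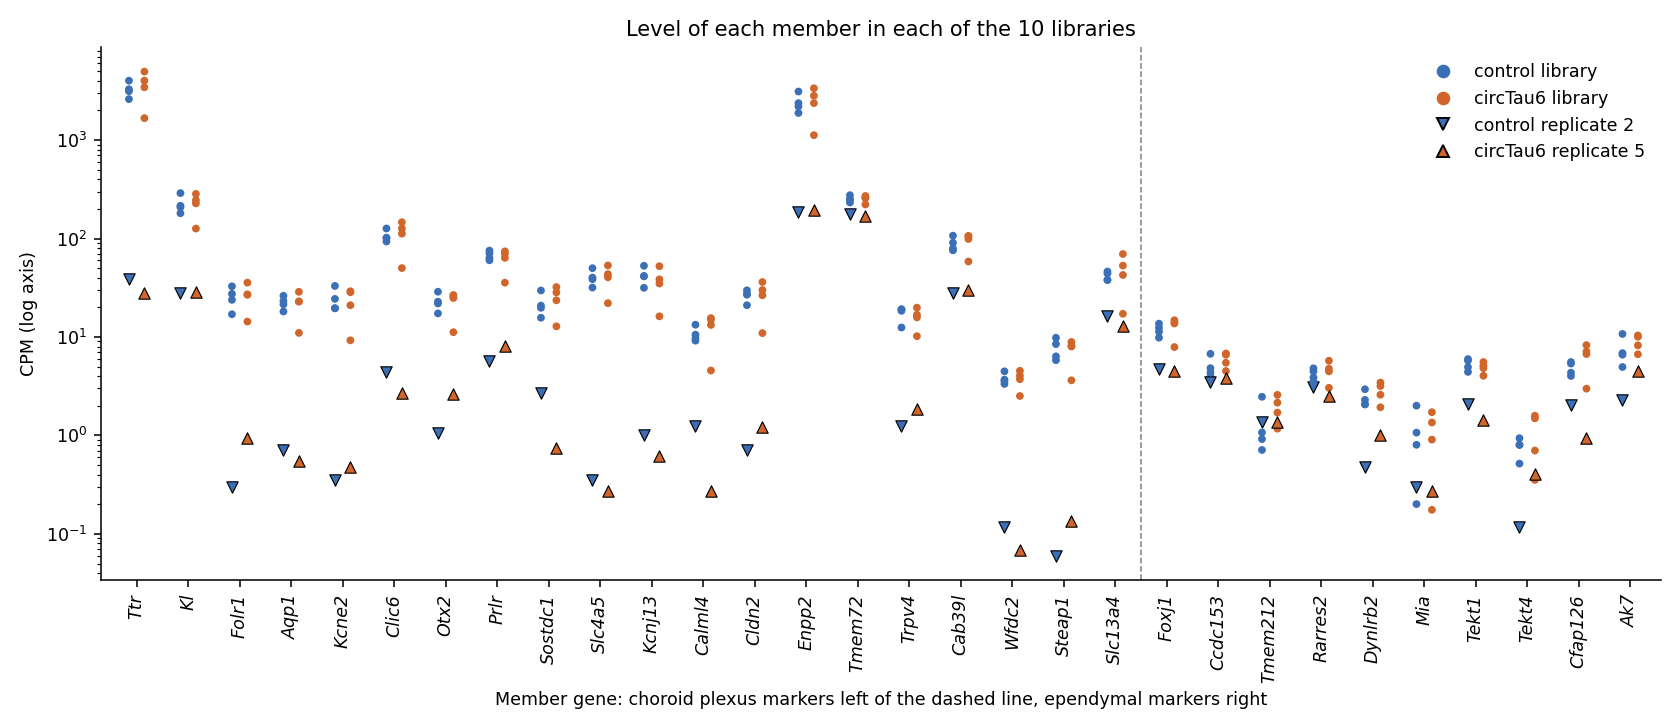
Level of the 30 members (x axis) in CPM (y axis, log) in each of 10 libraries, blue for control and orange for circTau6, with triangles for control replicate 2 and circTau6 replicate 5. The triangles lie below all circles in 20 of 20 choroid plexus members and in 6 of 10 ependymal members.

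Choroid plexus transcripts were scarce in 1 library of each group, and the extent differed widely from gene to gene. Control replicate 2 and circTau6 replicate 5 were the lowest of 10 libraries for 20 of 20 choroid plexus members. Among the 18 members with over 3 counts in both, control replicate 2 held 0.904% (Slc4a5) to 71.3% (Tmem72) of the median CPM of the other 4 controls, with a median of 5.71%. circTau6 replicate 5 held 0.648% (Slc4a5) to 65.4% (Tmem72) of that of the other 4 circTau6 libraries, with a median of 3.93%. Both libraries were under 10% for 11 of 20 members. Of all 14396 genes tested, 37 were, or 0.257%. In bulk tissue, fewer cells of a type, less RNA per cell and transcripts from other cells cannot be told apart.

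**Figure D2:**
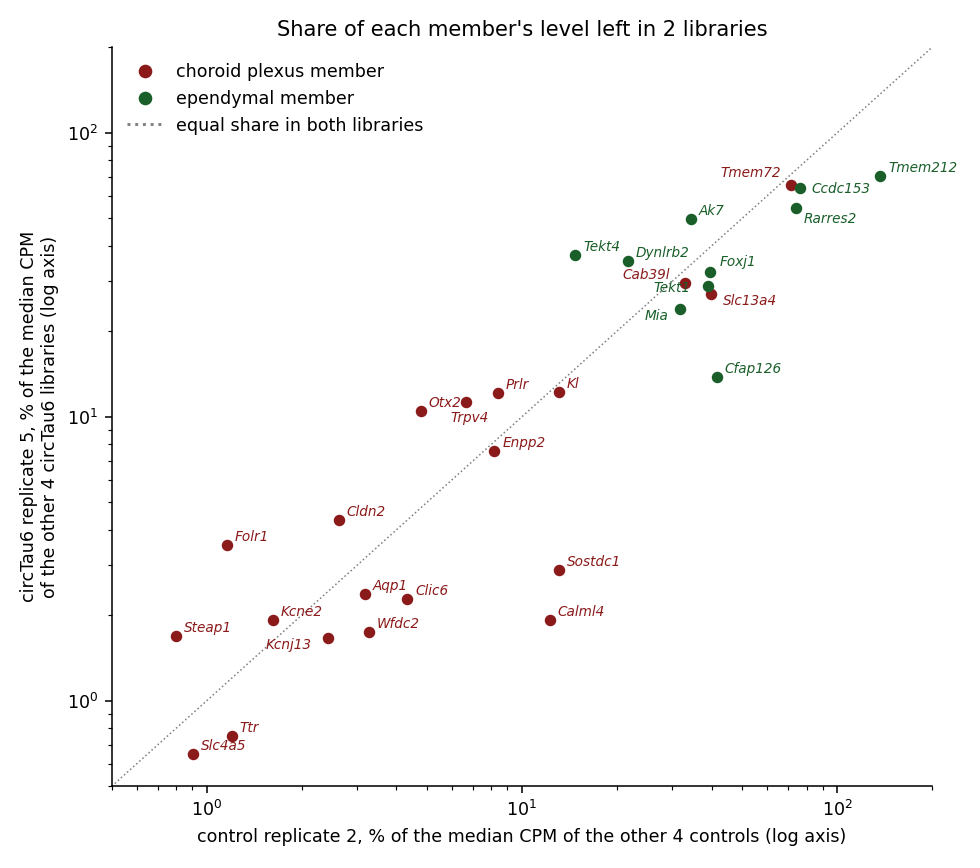
Level of each member in control replicate 2 (x axis) and circTau6 replicate 5 (y axis), each as a percent of the median CPM of the other 4 libraries of its group, on log axes. Choroid plexus members (red) spread from below 1% for Slc4a5 to 71.3% and 65.4% for Tmem72, while ependymal members (green) lie above 10% in both libraries.

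Among carriers and signals, Ttr, whose protein carries thyroid hormone and retinol-binding protein, had 3286, 38.6, 4012, 3137 and 2606 CPM in control replicates 1 to 5. In circTau6 replicates 1 to 5 it had 3438, 1671, 4961, 4019 and 28.0 CPM. The groups overlapped, and the low values were 1.20% (95% counting interval 1.110 to 1.297) and 0.750% (0.679 to 0.826) of the median of the others in their group. Enpp2 had 2374, 187, 3114, 2200 and 1885 CPM in control and 2374, 1121, 3361, 2817 and 197 CPM in circTau6 libraries. It kept 8.18% and 7.57% in the low libraries, several times the share that Ttr kept. Kl, which encodes klotho, the co-receptor of the hormone FGF23, had 215, 27.8, 289, 208 and 181 CPM in control and 228, 126, 284, 246 and 29.0 CPM in circTau6 libraries. It kept 13.1% and 12.2%, close to each other and above Ttr.

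Folr1, the folate receptor that carries folate into the fluid, had 0.297 and 0.952 CPM in the low libraries and 14.3 to 35.7 CPM in the other 8. Prlr, the prolactin receptor, had 5.64 and 8.09 CPM against 35.7 to 75.4 CPM. Wfdc2, a small secreted protein, had 2 and 1 counts in the low libraries and 43 to 80 counts in the others. All 3 were thus at their lowest in the same libraries, with groups that overlapped. Sostdc1, a secreted antagonist of BMP and Wnt signals, had 19.8, 2.67, 29.7, 20.8 and 15.7 CPM in control and 23.6, 12.8, 32.1, 28.4 and 0.748 CPM in circTau6 libraries. It kept 13.1% (95% counting interval 9.59 to 17.6) in control replicate 2 and 2.88% (1.44 to 5.15) in circTau6 replicate 5. Calml4, a calmodulin-like protein, differed in the same direction, with 12.3% (7.60 to 18.8) and 1.92% (0.524 to 4.92). For these genes the intervals of the low libraries do not overlap, nor do they for Ttr, Clic6, Enpp2, Slc13a4, Tmem72 and Cfap126. The intervals cover counting error only.

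Of 7 members that act in ion and water transport, which drives fluid secretion, 5 were under 10% in both low libraries, namely Slc4a5, Aqp1, Kcne2, Clic6 and Kcnj13. Slc4a5, a sodium bicarbonate cotransporter, had 40.1, 0.356, 50.01, 38.6 and 31.8 CPM in control and 40.4, 22.1, 53.3, 43.5 and 0.272 CPM in circTau6 libraries. The low values rest on 6 and 4 counts, 0.904% (95% counting interval 0.332 to 1.97) and 0.648% (0.177 to 1.66) of the others. Aqp1, the water channel, had 21.5, 0.712, 26.2, 23.2 and 18.2 CPM in control and 22.9, 11.01, 28.8, 23.0 and 0.544 CPM in circTau6 libraries. Kcne2, a potassium channel subunit, had 0.356 and 0.476 CPM in the low libraries and 9.25 to 33.0 CPM in the others. Clic6, of the chloride intracellular channel family, had 4.39 and 2.72 CPM against 50.1 to 146 CPM. In each of these genes the low libraries stood well below every other library of either group. Trpv4, an osmosensitive cation channel, kept more, 6.64% and 11.2%, and the sulfate transporter Slc13a4 more still, 39.9% and 27.1%. Slc13a4 had 44.1, 16.4, 46.2, 38.0 and 37.9 CPM in control and 42.6, 17.2, 69.6, 53.1 and 13.0 CPM in circTau6 libraries, so that circTau6 replicate 2 lay close to the low libraries.

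Otx2, the homeobox transcription factor that maintains choroid plexus identity, had 22.8, 1.07, 28.8, 21.9 and 17.4 CPM in control and 24.9, 11.2, 26.7, 25.7 and 2.65 CPM in circTau6 libraries. Its share in the low libraries was 4.78% (95% counting interval 2.83 to 7.55) and 10.5% (7.46 to 14.3). Cldn2, a claudin of the leaky tight junctions of this epithelium, had 0.712 and 1.22 CPM in the low libraries and 10.9 to 36.2 CPM in the others. Steap1, of a metalloreductase family, had 1 and 2 counts in the low libraries and 62 to 171 counts in the others. Steap1 was thus within 3 counts of 0 in these libraries. Cab39l, a scaffold protein of the LKB1 kinase complex, kept more, 32.8% and 29.5%, with 27.9 and 30.1 CPM against 58.5 to 107 CPM.

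Tmem72, a transmembrane protein, varied least. It had 252, 178, 276, 248 and 232 CPM in control and 260, 222, 271, 257 and 169 CPM in circTau6 libraries. The same libraries were its lowest, yet at 71.3% (95% counting interval 68.7 to 73.9) and 65.4% (62.9 to 68.1) of the others of their group. At this level its pattern over libraries resembled that of the other choroid plexus members in order and differed from it in size.

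Since members kept such different shares, the makeup of the members' summed level also differed between libraries. The 20 members summed to 4821 to 14184 TPM in 8 libraries, or 0.482% to 1.42% of all TPM, and to 340 and 325 TPM in control replicate 2 and circTau6 replicate 5. Ttr made up 70.6% to 73.4% of the sum in the 8 libraries, against 23.8% and 18.2% in the low ones. Enpp2 made up 19.0% to 21.4% against 46.4% and 52.2%, so that in the low libraries Enpp2 was above Ttr. Tmem72 was 3.92% to 7.54% of the other 18 members against 25.5% and 25.8%. The part of transcripts from other cells in these shares was not tested. The 10 ependymal members summed to 67.6 to 132 TPM against 45.1 and 44.9 TPM, and the choroid plexus sum over the ependymal sum was 71.3 to 121 against 7.54 and 7.24.

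Outside these 2 libraries the choroid plexus members varied together between animals. circTau6 replicate 2 was the lowest of the 8 for 20 of 20 members, and circTau6 replicate 3 or control replicate 3 was the highest for 17 of 20. The ratio of the highest to the lowest CPM of the 8 had a median of 2.60 over the members, from 1.24 (Tmem72) to 4.05 (Slc13a4). Set against Ttr, the spread narrowed. TPM per TPM of Ttr had a coefficient of variation of 4.69% (Enpp2) to 29.2% (Tmem72) over the 8 libraries, with a median of 11.8% against 26.1% for TPM itself. It was the smaller of the pair for 17 of 19 members, and the exceptions were Tmem72 and Wfdc2. circTau6 replicate 3 is also the library whose deviations correlated with GC content, and the part of that in its high values was not tested.

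Kcnj13, which encodes the inward rectifier potassium channel Kir7.1 of the apical membrane, had a ratio to Ttr that did not overlap between the groups in 8 libraries. It had 41.3, 1.01, 52.9, 41.7 and 31.6 CPM in control and 34.9, 16.2, 52.4, 38.5 and 0.612 CPM in circTau6 libraries, with groups that overlapped. Per 1000 TPM of Ttr it had 11.7, 12.3, 12.4 and 11.3 in control replicates 1, 3, 4 and 5 and 9.48, 9.06, 9.85 and 8.95 in circTau6 replicates 1 to 4. Every circTau6 value lay below every control value. In control replicate 2 and circTau6 replicate 5 the ratio was 24.4 and 20.5, from 17 and 9 counts of Kcnj13. Of 19 members set against Ttr in TPM, 1 had circTau6 libraries that all lay below the controls, 0 had them all above, and 18 overlapped. The overlap of Enpp2 was slight, with 263.1 to 273.67 per 1000 TPM of Ttr in circTau6 and 273.63 to 303.4 in control libraries. With CPM in place of TPM, all circTau6 libraries lay below the controls for Enpp2 as well as for Kcnj13. In CPM this was so for 0.0417% of 14395 tested genes, these members included, and all lay above for 0.243%. Most tested genes do not share the variation of Ttr, so these shares give no chance rate for genes that do. Against Enpp2, Kcnj13 also did not overlap (39.9 to 45.4 per 1000 TPM in control and 32.7 to 37.2 in circTau6 libraries), nor against Slc4a5. Against Clic6 and against Kl the groups overlapped. These reference genes vary together with Ttr, so the ratios are not independent of each other. Kcnj13 was picked out here for its ratio, which was therefore given no test. The gene overlaps Gigyf2 on the opposite strand, and whether reads were counted by strand was not given in the sources used here.

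**Figure D3:**
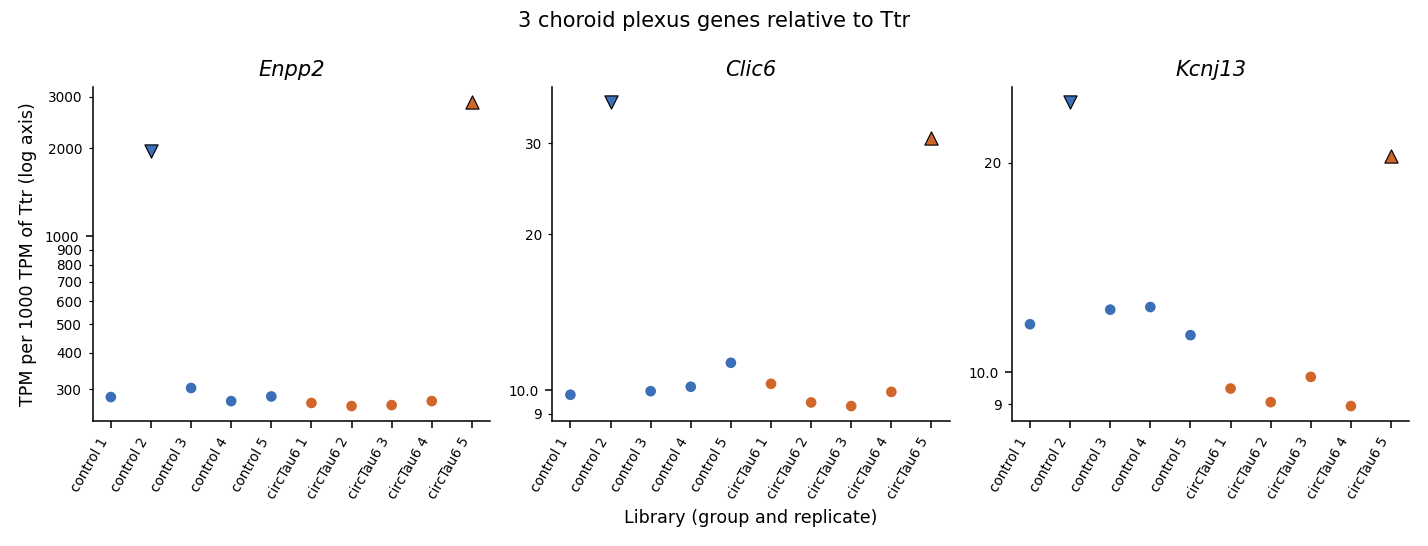
TPM of Enpp2, Clic6 and Kcnj13 per 1000 TPM of Ttr (y axes, log) in each library (x axis), blue for control and orange for circTau6, with triangles for control replicate 2 and circTau6 replicate 5. Leaving the triangles aside, control values of Kcnj13 lie at 11.3 to 12.4 and circTau6 values at 8.95 to 9.85. The groups overlap for Clic6 and only just for Enpp2, whose highest circTau6 value is 273.67 and lowest control value 273.63.

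Ependymal members were also lower in both of these libraries, by less. Control replicate 2 and circTau6 replicate 5 were the lowest of 10 for 6 of 10 members, namely Foxj1, Ccdc153, Dynlrb2, Tekt1, Cfap126 and Ak7. Among 9 members with over 3 counts in both, they held a median of 39.5% and 35.4% of the median of the other libraries of their group. No ependymal member was under 10% in both. Choroid plexus epithelium also carries cilia and transcribes some of these genes, so the lists are not wholly separate.

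Foxj1, the transcription factor of motile cilia, had 11.3, 4.69, 13.7, 9.84 and 12.4 CPM in control and 14.8, 7.90, 13.7, 14.0 and 4.49 CPM in circTau6 libraries. The low libraries were at 39.5% and 32.4% of the others of their group, and the groups overlapped. Of the cilium's structure, Tekt1, a tektin of the axoneme, had 5.76, 2.08, 5.97, 4.42 and 4.94 CPM in control and 5.10, 4.04, 5.57, 4.83 and 1.43 CPM in circTau6 libraries. Cfap126, a protein of the ciliary base, had 5.37, 2.02, 5.57, 4.02 and 4.34 CPM in control and 8.27, 2.99, 7.12, 6.71 and 0.952 CPM in circTau6 libraries. In all 3 genes circTau6 replicate 2 was the lowest of the other 4 circTau6 libraries. Ak7, a ciliary adenylate kinase, had 6.86, 2.31, 10.7, 4.95 and 6.61 CPM in control and 8.22, 6.67, 10.05, 10.4 and 4.56 CPM in circTau6 libraries. Dynlrb2, a dynein light chain, had 0.475 and 1.02 CPM in the low libraries and 1.93 to 3.44 CPM in the others.

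The remaining ependymal members were less uniform. Ccdc153, a coiled-coil protein of cilia, had 3.50 and 3.88 CPM in the low libraries, just under the 3.95 to 6.80 CPM of the others. Rarres2, which encodes the chemoattractant chemerin, had 3.09 and 2.52 CPM against 3.04 to 5.74 CPM. Tmem212, a transmembrane protein used as an ependymal marker, had 0.712, 1.36, 0.919, 1.07 and 2.47 CPM in control and 2.15, 1.17, 2.58, 1.71 and 1.36 CPM in circTau6 libraries. Control replicate 2 was thus its second highest control, at 137% of the median of the others. Mia, a small secreted protein, and Tekt4, another tektin, had few counts. Mia ranged from 0.176 to 2.01 CPM and was lowest in circTau6 replicate 2, and Tekt4 ranged from 0.119 CPM (2 counts, control replicate 2) to 1.59 CPM. Mia kept 31.7% (95% counting interval 10.3 to 74.0) in control replicate 2 and 24.1% (6.56 to 61.6) in circTau6 replicate 5. Tekt4 kept 14.8% (1.79 to 53.4) and 37.2% (13.6 to 80.9), so that both genes lay below the median of the others in both libraries, with wide counting error.

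Wider lists were low in the same libraries. In the second choroid plexus list, with 29 genes tested and none of the members, control replicate 2 and circTau6 replicate 5 held a median of 13.7% and 12.7% of the other libraries of their group, and 9 genes were under 10% in both. In the second motile cilium list, with 42 genes tested, the medians were 51.1% and 56.0%, and 0 genes were under 10% in both. Dnah5, Rfx3 and Fam183b of the latter were over 90% in both. As mean log2 CPM, the choroid plexus members stood at 1.65 and 1.59 in these libraries and 4.75 to 6.05 in the others, and the ependymal members at 0.58 and 0.71 against 1.27 to 2.26.

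Markers of other cells next to the hippocampus were set beside these values. Meningeal fibroblast markers stood at 3.74 and 3.36 log2 CPM in control replicate 2 and circTau6 replicate 5, inside the 2.81 to 4.89 of the others. As summed CPM they were the lowest of 10 in the same libraries, with 188 and 144 against the 192 to 536 of the others. As mean log2 CPM they were lowest in circTau6 replicate 2 and highest in circTau6 replicate 3, where the choroid plexus members were also lowest and highest of the 8 libraries. All 10 of these markers passed the filter. Endothelial markers stood at 4.68 and 4.72 against 4.57 to 5.08, and thalamus and habenula markers at 2.26 and 2.18 against 1.80 to 2.82. Astrocyte markers stood at 7.91 and 7.98, just above the 7.78 to 7.86 of the others. Oligodendrocyte markers stood at 8.09 and 8.21 against 8.17 to 8.35. The part of the dissection, or of any of these cells, in the choroid plexus values was not tested.

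**Figure D4:**
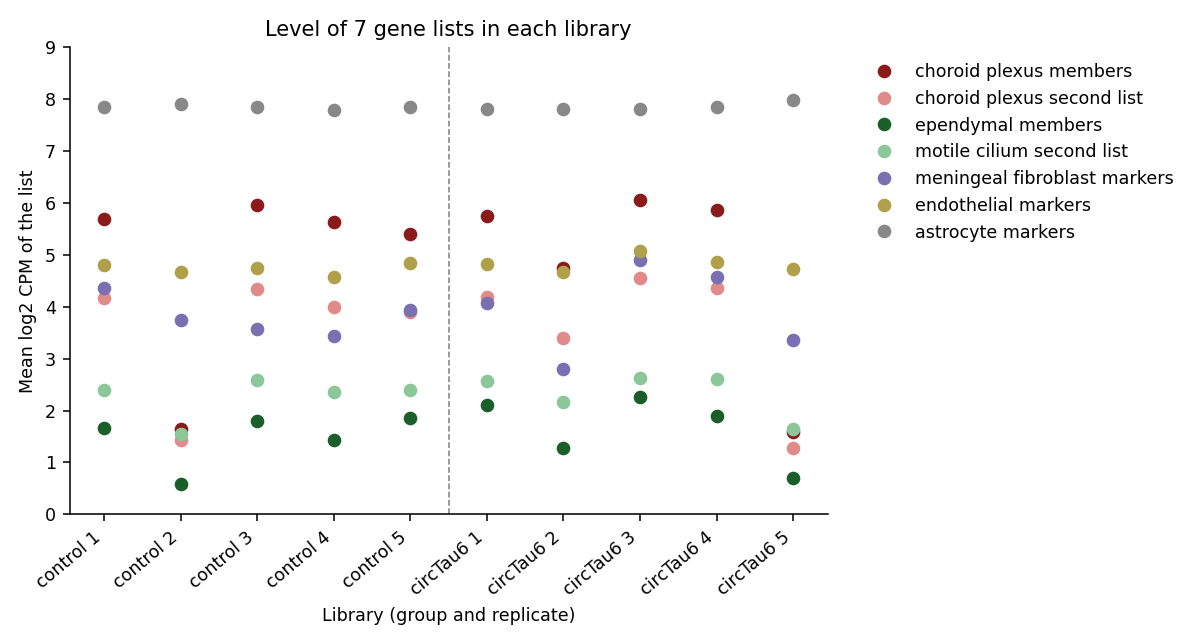
Mean log2 CPM (y axis) of 7 gene lists, 1 colour per list, in each library (x axis; 5 control and 5 circTau6 libraries on either side of the dashed line). Both choroid plexus lists drop to between 1.27 and 1.65 in control 2 and circTau6 5, while meningeal markers stand at 3.74 and 3.36 there and astrocyte markers at 7.91 and 7.98.

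Between control and circTau6, no member passed the edgeR test. Of 20 choroid plexus and 10 ependymal members, 0 were called at an adjusted p under 0.05, against 0% of the 14396 genes tested. At an unadjusted p under 0.05, 0 members stood out against 4.42% of all genes. In 0 members did every circTau6 library lie above, or every one below, every control, against 0.472% and 0.368% of all genes. DESeq2 called 0 members and 0.097% of its genes, and limma voom called 0 members and 0% of all genes. In the authors' deposited table the lowest FDR of a member is 0.987, and the lowest p is 0.148, for Tmem212.

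The choroid plexus members had a median log2 fold change of -0.01, against -0.00 over all genes tested, with 8 positive and 12 negative values from -0.23 (Kcnj13) to 0.16 (Calml4). Their adjusted p in edgeR was at least 0.994. The list's level averaged 4.87 log2 CPM (SD 1.81, n = 5) among controls and 4.80 log2 CPM (SD 1.86, n = 5) after circTau6. The standard errors were wide, with a median of 0.81 and a range of 0.15 (Tmem72) to 1.21 (Ttr), so that for most of them the data do not bound the difference closely. Ttr had a log2 fold change of 0.11 ± 1.21 (SE) and Enpp2 of 0.02 ± 0.83 (SE). Tmem72 had -0.01 ± 0.15 (SE), the tightest estimate of the list. The sign of the median depended on single libraries: it was -0.30 without control replicate 2 and 0.29 without circTau6 replicate 5.

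Ependymal members had a median log2 fold change of 0.26, against -0.00 over all genes tested, and a median standard error of 0.37. Of the values 9 were positive and 1 negative, but members that vary together between libraries do not give independent signs. The list's level averaged 1.47 log2 CPM (SD 0.52, n = 5) among controls and 1.65 log2 CPM (SD 0.65, n = 5) after circTau6. Tekt4 had 0.53 ± 0.51 (SE), Tmem212 had 0.46 ± 0.34 (SE) and Ak7 had 0.34 ± 0.36 (SE), and Foxj1 had 0.09 ± 0.37 (SE). The negative value was that of Tekt1, -0.14 ± 0.34 (SE). The median was 0.09 without control replicate 2 and 0.40 without circTau6 replicate 5. Each value lay within 2 standard errors of 0, and the edgeR adjusted p was at least 0.981. Meningeal fibroblast markers had a median of 0.30 with 9 of 10 positive, and of 0.38 with 9 of 10 positive without both choroid-poor libraries. The part of such tissue in the ependymal values was not tested.

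With control replicate 2 and circTau6 replicate 5 left out, 0 members were called, against 0.0208% of the genes tested with edgeR. The choroid plexus median was -0.02 with a median standard error of 0.30, and the ependymal median was 0.24 with 0.23. The standard error was smaller than in the fit of all 10 libraries for 20 of 20 choroid plexus and 9 of 10 ependymal members, and for Tmem212 it went from 0.34 to 0.39. Ttr then had 0.11 ± 0.34 (SE). With the mean level of the second choroid plexus list as a covariate in all 10 libraries, the shared variation of these genes was held fixed. Any group difference that these genes share is taken out as well. The values are thus relative to that list, and their errors do not bound the plain group difference. The choroid plexus median was then -0.07 with 3 positive and 17 negative values. The median standard error was 0.14, and the error of a choroid plexus member in the plain fit was 2.24 to 15.3 times its error with the covariate, with a median of 5.29. edgeR with the covariate called 0 members and 0.0139% of all genes. At an unadjusted p under 0.05 it had 2 of 30 members, against 5.52% of all genes. These were Kcnj13 at -0.39 ± 0.11 (SE), with an adjusted p of 0.614, and Ak7 at 0.38 ± 0.17 (SE), with 0.887. Kcnj13 is the gene picked out above for its ratio to Ttr in these libraries, so its value here is not separate evidence.

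**Figure D5:**
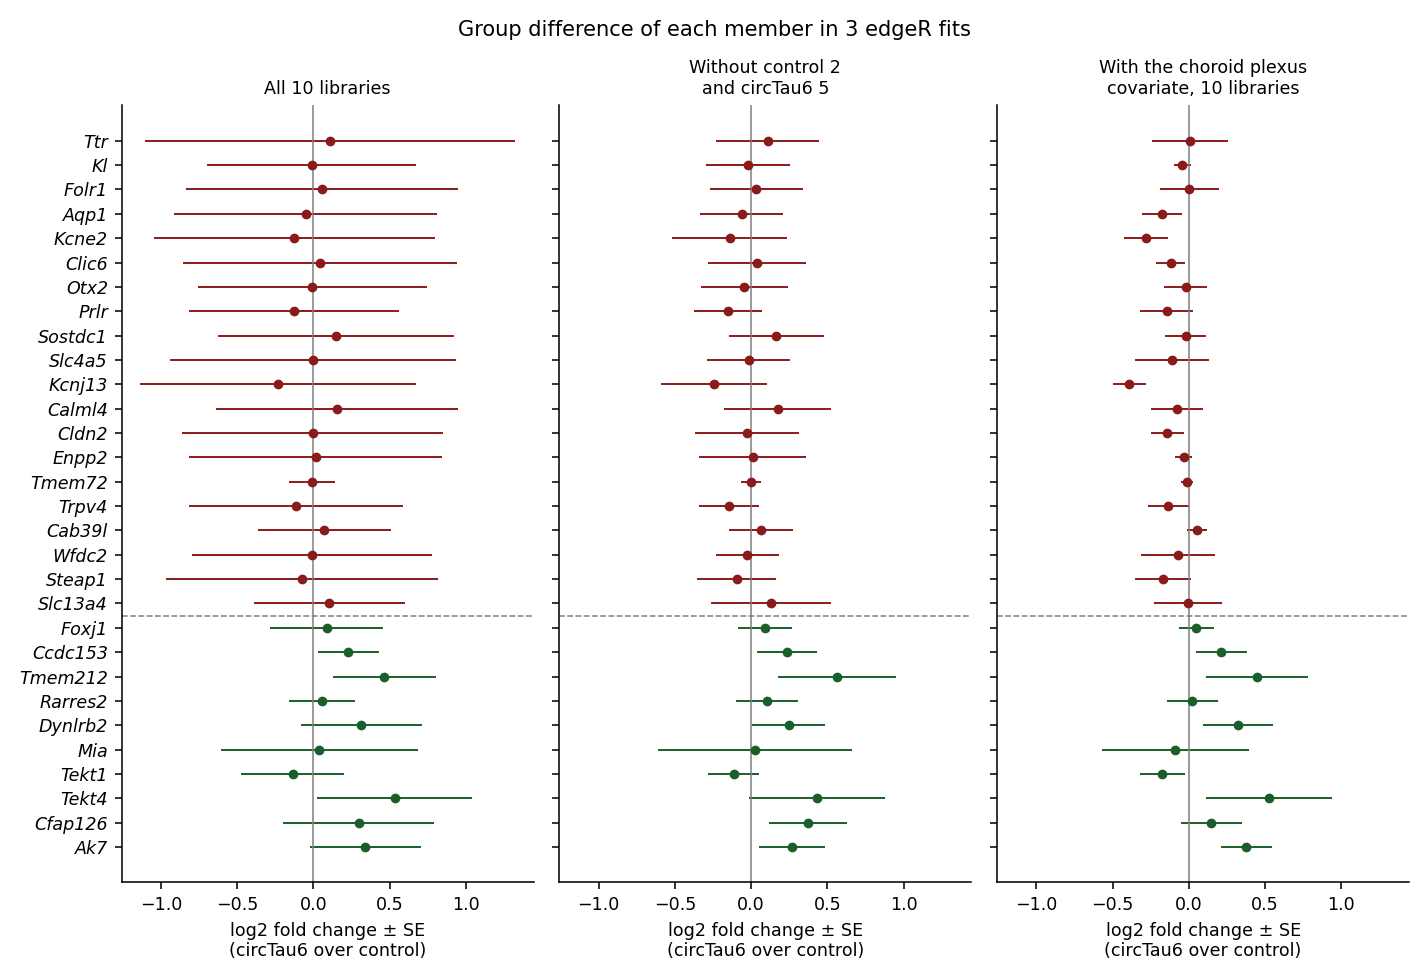
Log2 fold change of circTau6 over control (x axis) with its standard error (bars) for each member (y axis; choroid plexus red, ependyma green) in edgeR fits of all 10 libraries, without control replicate 2 and circTau6 replicate 5, and with the choroid plexus covariate. The median standard error of the choroid plexus members goes from 0.81 to 0.30 and 0.14 across the panels, and no member was called in any of them.

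In the second choroid plexus list 0 of 29 genes were called, with a median log2 fold change of 0.06 and 20 positive and 9 negative values. Without control replicate 2 and circTau6 replicate 5 the median was 0.04, again with 20 positive and 9 negative values. Slc5a5, the sodium iodide symporter, had 12.4, 16.6, 4.02, 10.7 and 20.2 CPM in control and 19.7, 20.4, 21.1, 20.8 and 9.93 CPM in circTau6 libraries. Its log2 fold change was 0.53 ± 0.39 (SE; edgeR adjusted p 0.981). Unlike the choroid plexus members, it was not low in control replicate 2. Perp, a membrane protein of cell junctions, had 0.33 ± 0.43 (SE), the keratin gene Krt8 had 0.27 ± 0.71 (SE), and the organic anion transporter gene Slco1a5 had -0.40 ± 0.78 (SE). In the second motile cilium list 0 of 42 genes were called, with a median of 0.09 and 30 positive and 12 negative values, and without those libraries of 0.10 with 27 and 15. The axonemal genes Drc1 and Dnah5 had 0.23 ± 0.12 (SE) and 0.20 ± 0.11 (SE), Dnai1 had 0.50 ± 0.29 (SE) and Enkur had -0.41 ± 0.24 (SE). None of these differences passed the edgeR test, with adjusted p of at least 0.981.

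The genes most like the choroid plexus members over the 10 libraries were sought among 13854 genes by the root mean square distance of centred log2 CPM from the members' mean profile. The 10 closest were Col8a1, Abca4, Ecrg4, Tc2n, Oca2, Slc28a3, Slc2a12, Rbm47, Gm14308 and Krt8, at distances of 0.11 to 0.37, against a median of 1.65 over all genes. Col8a1, for example, had 32.3, 1.90, 37.4, 33.4 and 25.9 CPM in control and 31.6, 16.5, 38.3, 32.2 and 2.11 CPM in circTau6 libraries, with the same low libraries. The member closest to the profile was Enpp2 at 0.20 and the farthest was Tmem72 at 1.42. Closest to the ependymal profile were Fxyd1, Rab11fip1, Prelp, Dnah11, Ccdc187, Agbl2, Fhad1, Vamp8, Bmp6 and Rsph4a, at 0.15 to 0.17, against a median of 0.56 over all genes. Foxj1 was the closest ependymal member at 0.15 and Mia the farthest at 0.71.

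Some properties of the rows bear on single members. In GENCODE release M21 on GRCm38, matched by gene identifier because the authors' build was not given in the sources used here, the 30 members lie on 16 chromosomes. Kcnj13 (ENSMUSG00000079436) lies on chromosome 1 from 87386363 to 87394729 on the minus strand, and Enpp2 (ENSMUSG00000022425) on chromosome 15 from 54838901 to 54952892 on the minus strand. Tmem72 (ENSMUSG00000048108) lies on chromosome 6 from 116679063 to 116716913 on the minus strand, with no overlapping gene, and Foxj1 (ENSMUSG00000034227) on chromosome 11 from 116330704 to 116335399. Another gene overlaps 4 members on the same strand (Clic6, Otx2, Prlr and Mia) and 8 on the opposite strand, so their counts may hold reads of the neighbour. The count per TPM differed more than 1.3-fold between libraries for Prlr (2.26-fold), Cab39l (1.49-fold), Cldn2 (1.36-fold) and Ccdc153 (1.31-fold), whose TPM values thus depend on more than the count.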

How the data were processed

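The authors deposited 1 table with a count and a TPM value per gene and library, per the file headers, and their own log2 fold change, p-value and FDR, by a test that was not given in the sources used here. RNA with integrity numbers above 8 was depleted of ribosomal RNA and made into stranded libraries for paired reads of 150 bp, per the labels' protocols. StringTie 1.3.1 and RSEM are named, without a role, per the submitters' processing notes. Aligner, genome build and gene models were not given in the sources used here.

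From the counts, edgeR 4.0.16 in R 4.3.3 (filterByExpr, TMM, robust quasi-likelihood F test, Benjamini-Hochberg adjustment over 14396 genes, threshold 0.05) compared 5 circTau6 with 5 control libraries. The standard error given for edgeR is the absolute log2 fold change divided by the square root of the F value of its test. CPM uses TMM-scaled totals, and log2 CPM has a prior count of 2. The script was tested on simulated data. Alternatives were DESeq2 1.42.0, limma 3.58.1 voom, other scalings, filters and thresholds, a replicate block, a choroid plexus covariate and left-out libraries. Of 45 pairs of libraries, the least different still differed by 4.13 times sampling noise (chi-square per degree of freedom). The labels do not say whether the samples of a group are separate litters or batches, and p-values measure the spread between these samples.

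The members and lists, and the libraries left out, were chosen with earlier results of these data known. The genes named are the 30 members, up to 4 genes of each second list by lowest p, the 10 genes closest to each profile, and Mapt; any other is named for a stated count or overlap, after its values were seen. Other marker lists are given by their levels.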

Additional observations from a re-analysis of the deposited data

Results flagged for a closer look

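In 36 of 80 groups of 5 values examined, 1 library lay so far from the other 4 of its group that the gap exceeded Dixon's limit of 0.710 of the range; chance alone picks out about 1 group in 20. Control replicate 2 was the library in 24 of them and circTau6 replicate 5 in 12, and 21 of the 30 members were among the genes. Since these genes vary together, the counts are not independent. The genes were also chosen with earlier results of these data known, so the chance rate is no test of them.

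In control replicate 2 the log2 CPM of members that stood apart was Ttr 5.27, Kl 4.80, Folr1 -1.25, Aqp1 -0.26, Kcne2 -1.06, Clic6 2.17, Otx2 0.25, Prlr 2.53, Sostdc1 1.48, Slc4a5 -1.06, Kcnj13 0.18, Calml4 0.45, Cldn2 -0.26, Enpp2 7.55, Trpv4 0.45, Cab39l 4.81, Wfdc2 -2.05, Steap1 -2.46, Slc13a4 4.04, Dynlrb2 -0.74 and Tekt1 1.14, each below the other 4 controls. The level of the choroid plexus members was 1.65 log2 CPM there, that of the second choroid plexus list 1.44 and that of the second motile cilium list 1.54. In circTau6 replicate 5 the log2 CPM was Ttr 4.81, Folr1 0.10, Aqp1 -0.59, Clic6 1.51, Sostdc1 -0.20, Slc4a5 -1.34, Kcnj13 -0.45, Trpv4 0.97, Wfdc2 -2.39, Steap1 -1.95 and Tekt1 0.63, each below the other 4 circTau6 libraries. Astrocyte markers stood at 7.98 log2 CPM in circTau6 replicate 5, above the 7.80 to 7.85 of the others. No cause of these values was tested.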

How the results depend on the processing

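Under 21 alternatives edgeR, DESeq2 and limma voom called 0 of the members each could test, and the lowest adjusted p of a member was 0.614. Of 619 values of members, 130 changed sign, in 24 members, each at no more than 1.24 times its standard error. Ak7, Ccdc153, Cfap126, Dynlrb2, Tekt4 and Tmem212 kept a positive sign in each alternative that gave them a value. The alternatives reuse the same libraries, so the kept signs are not separate evidence. With at least 10 counts required in every library, 11 of the 30 members were not tested (Folr1, Aqp1, Kcne2, Slc4a5, Kcnj13, Calml4, Wfdc2, Steap1, Dynlrb2, Mia and Tekt4). Over all genes, calls went from 0 to 2 with library totals only, 2 without a filter, 2 with the choroid plexus covariate, 2 at a threshold of 0.1, 3 without both choroid-poor libraries and 14 with DESeq2, and the cause was not tested. Leaving out 1 library gave 0 to 4 calls: 1 without control replicate 1, 1 without control replicate 3 and 4 without circTau6 replicate 5. The list medians ran from -0.30 to 0.29 (choroid plexus) and 0.09 to 0.40 (ependyma) when 1 library was left out.

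The replicate block gave 4 calls over all genes, 0 among members, and medians of 0.01 for choroid plexus and 0.20 for ependymal members. Deviations of same-numbered libraries had correlations of 0.10, 0.13, 0.14, -0.06 and -0.08 across genes. Such low values do not settle whether the numbers pair the animals, which the labels do not say. Depth limits Steap1, Wfdc2 and Tekt4, which had 1 or 2 counts in a low library.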
